A study of Homo sapiens with 9 samples.

Results

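The mitochondrial genome encodes some of the core subunits of the respiratory chain, and 10 of its mRNAs are described here: ND1, ND2, ND4, ND4L and ND5 of complex I, CYTB of complex III, COX1, COX2 and COX3 of complex IV, and ATP6 of complex V. They were chosen by gene symbol from a table of 17911 genes, in which 28 rows, 13 of them mRNAs, belong to the mitochondrial genome. Each of the 10 symbols matched 1 row, and each row passed the filter on low counts. In the order given above, their Entrez IDs are 4535, 4536, 4538, 4539, 4540, 4519, 4512, 4513, 4514 and 4508.

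RNA was sequenced from cultures labelled MDA-MB-231, a human cell line in long use that comes from a breast cancer without hormone receptors or raised ERBB2, grown as capsules or spheroids. The labels give 3 capsule samples and 6 liquid overlay spheroid samples, of which 3 are called small and 3 large. The labels give the same protocol to every sample: RPMI medium with 10% serum, 5% Matrigel, a treatment text that names trastuzumab (an antibody against the receptor ERBB2), and RNA taken with TRIzol at 96 h. No sample is labelled as untreated, every sample has the cell type label WT, and nothing says whether replicates came from separate cultures, so p-values measure the spread between these samples, which may be technical. The names of the spheroid columns do not give the size. They form 2 sets of 3, named Sph.WT and L.O, and the 6 columns are treated as 1 spheroid group with both sets shown separately. Capsule and L.O column names start with MDA and contain subread, while Sph.WT column names do neither. What this difference in names stands for is not given. Every comparison with Sph.WT libraries carries it, and its part in the results was not tested.

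Mammalian mitochondrial DNA is transcribed from both strands as long joined RNAs. The tRNAs that lie between most mRNAs are cut out, which frees the mRNAs, and the cut ends are then completed with a poly(A) tail. Of the mitochondrial mRNAs, only ND6 is read from the light strand, so all 10 described here come from heavy-strand RNA. The proteins assemble with many nuclear-encoded subunits into complexes I, III, IV and V. Complex II has nuclear subunits only.

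The mRNAs lie close together, and some overlap, which bears on how reads can be assigned. The sequences at these junctions are shown because reads from the shared bases belong to 2 genes, and how such reads were counted is not given in the sources used here. All are from the plus strand of GRCh38, taken from the transcripts of GENCODE release 29 and written 5′ to 3′ with the shared bases in capitals. Each gene is annotated as coding sequence without introns. ND4L (chrM:10470-10766) and ND4 (chrM:10760-12137) share 7 bases, which hold the stop of ND4L and the start codon of ND4. The stretches shown are chrM:10737-10766 and chrM:10760-10789.
ND4L end: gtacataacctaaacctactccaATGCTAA
ND4 start: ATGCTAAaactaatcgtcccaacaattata
ATP8, a small subunit of complex V that is not among the 10, shares 46 bases with ATP6 (chrM:8527-9207). These are 22.2% of ATP8 and 6.75% of ATP6. The stretches shown are chrM:8513-8572 and chrM:8527-8586.
ATP8 end: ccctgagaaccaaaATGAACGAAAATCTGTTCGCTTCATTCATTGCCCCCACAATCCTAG
ATP6 start: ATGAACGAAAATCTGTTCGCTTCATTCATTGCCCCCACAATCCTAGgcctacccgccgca
ATP6 and COX3 (chrM:9207-9990) share a single base, the last of ATP6.

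The other mRNAs end without overlap, some of them with a stop codon that is completed by the poly(A) tail. ND1 (chrM:3307-4262) ends in TA, while ND2 (chrM:4470-5511), ND4, COX3 and CYTB (chrM:14747-15887) end in a single T. COX1 (chrM:5904-7445) ends in AGA, whereas COX2 (chrM:7586-8269) ends in TAG and ND5 (chrM:12337-14148) in TAA. The last 30 bases of ND1 and COX1 are shown for these 2 kinds of end, with the last bases of the reading frame in capitals.
ND1 end: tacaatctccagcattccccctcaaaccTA
COX1 end: ttcgaagaacccgtatacataaaatctAGA
No row of the table had a symbol of a nuclear copy of a mitochondrial mRNA. The 7 nuclear copies that had a row were all copies of the rRNA gene RNR2, with 17.8 to 57.0 CPM (counts per 1000000 counts) in sum per library.

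The libraries held 13212665 to 13735221 counts in capsules, 16605098 to 33263076 in Sph.WT spheroids and 15525725 to 15988167 in L.O spheroids. The Sph.WT libraries stood apart: their log-scale correlation over genes was 0.764 to 0.773 with capsules and 0.75 to 0.769 with L.O libraries, while capsules and L.O libraries correlated at 0.979 to 0.986. Of 10 markers of MDA-MB-231, 9 were higher in the Sph.WT libraries than in either other set (edgeR). CD44, a hyaluronan receptor, averaged 2.20 CPM in capsules, 849 CPM in Sph.WT spheroids and 5.72 CPM in L.O spheroids, and the 10 markers summed to 977 to 1045, 5876 to 6532 and 1268 to 1295 CPM in those sets. The 7 genes listed as markers of HEK293, a human embryonic kidney line, summed to 2751 to 2960 CPM in capsules, 58.9 to 62.3 CPM in Sph.WT spheroids and 2374 to 2692 CPM in L.O spheroids, and NEFL and PAX2 of that list were at 0 in every Sph.WT library. CDKN2A, which is deleted in MDA-MB-231, had 473 to 554 CPM in capsules, 0.631 to 0.855 CPM in Sph.WT spheroids and 475 to 697 CPM in L.O spheroids. The markers of capsule and L.O libraries thus went against their cell line label, and every comparison with Sph.WT libraries carries this difference, whose part in the results was not tested. Immune, fibroblast and endothelial markers summed to at most 10.6, 42.5 and 0.984 CPM in capsules, 147, 179 and 10.3 CPM in Sph.WT spheroids and 29.4, 96.6 and 2.63 CPM in L.O spheroids. These sums rest on the 2 of 5 immune, 4 of 5 fibroblast and 3 of 4 endothelial markers that had a row. RNAs that track the preparation of RNA also differed between sets: the nuclear RNA MALAT1 had 417 to 555 CPM in capsules, 4845 to 5688 CPM in Sph.WT spheroids and 294 to 348 CPM in L.O spheroids, and the signal recognition particle RNA RN7SL2 had 954 to 1266, 75.5 to 129 and 227 to 728 CPM. Their part was not tested either. In such bulk samples, fewer cells of a type and less RNA per cell cannot be told apart.

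The 10 mRNAs together made up 3.16%, 2.99% and 3.17% of all counts in the capsule libraries. In the Sph.WT spheroids they made up 5.19%, 5.24% and 5.17%, and in the L.O spheroids 2.84%, 2.62% and 2.49%. No 2 sets overlapped, and capsules lay between the spheroid sets, nearer to L.O. The means were 3.11% ± 0.0998, 5.20% ± 0.0351 and 2.65% ± 0.178 (SD, n = 3 each). With counts of nuclear genes as the denominator the means were 3.24% in capsules, 5.59% in Sph.WT spheroids and 2.75% in L.O spheroids, in the same order.

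Against all 6 spheroid libraries pooled as 1 group, none of the 10 mRNAs was called in capsules. This does not show that they were equal. Against the mean of the 2 spheroid sets in a fit with 3 groups, 8 were called lower (COX1 at -0.52, adjusted p = 2.26e-07, edgeR). That contrast was unplanned, and 12643 genes were called in it in either direction, so a call by itself was common there. In the pooled test all 10 fitted log2 fold changes were negative, from -0.84 for COX1 to -0.08 for ATP6. The adjusted p-values ran from 0.308 to 0.921 (edgeR quasi-likelihood test, Benjamini-Hochberg adjustment over 16985 genes), and none had an unadjusted p under 0.05. In the same test 639 genes (3.76%) were called, 2.30% of those tested higher and 1.47% lower, and 29.0% had an unadjusted p under 0.05. For each of the 10, the capsule values overlapped the range of the 6 spheroid libraries. That range was wide, and the spheroid sets lay at its opposite ends: COX1, for example, ran from 5899 to 18779 CPM with a median of 12912 CPM. The comparisons below therefore set capsules against each spheroid set. Both use the same 3 capsule libraries and are not independent of each other.

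**Figure D1:**
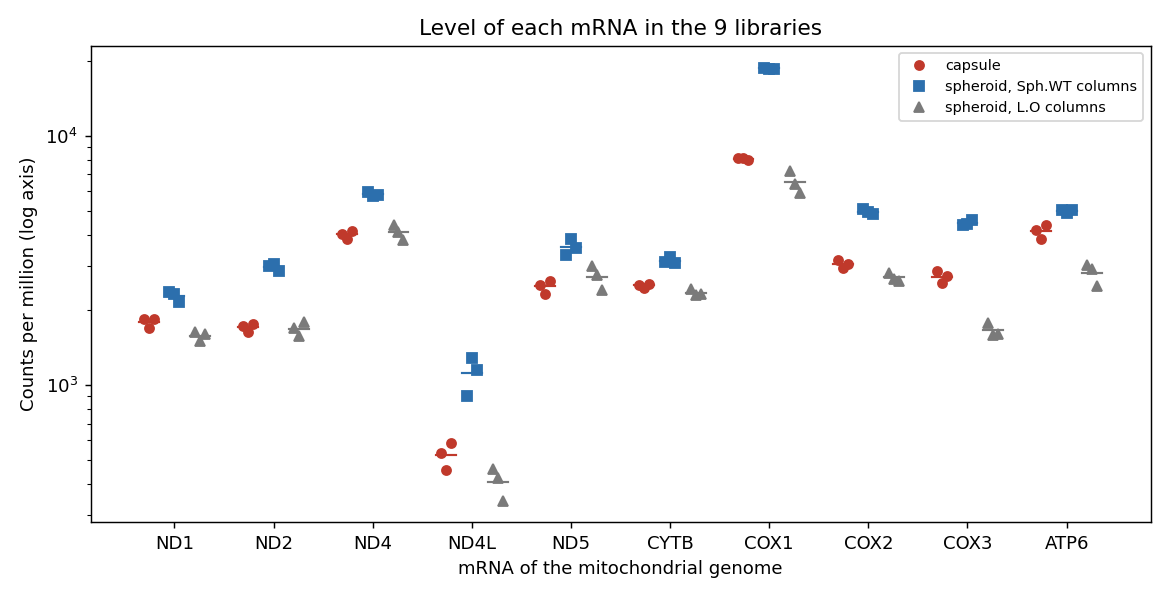
Level of each of the 10 mRNAs in CPM (log axis) in the 3 capsule libraries (red circles), the 3 Sph.WT spheroid libraries (blue squares) and the 3 L.O spheroid libraries (grey triangles); short lines mark the mean of 3. All Sph.WT points lie above the capsule and L.O points of the same mRNA, and capsule points lie above the L.O points for ND1, CYTB, COX1, COX2, COX3 and ATP6.

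Set against Sph.WT spheroids, all 10 mRNAs were lower in capsules and no library of either set overlapped the other. In that comparison 42.9% of all genes tested were called lower and 43.2% higher, so a call by itself was common. How many of all genes had separate ranges was not counted in any comparison. Separate ranges, here and below, are therefore not shown to be particular to these mRNAs. The median log2 fold change was -0.89 for the 10 mRNAs and 0.01 for all 16157 genes tested. Set against L.O spheroids, 7 of the 10 were higher in capsules and none lower, where 24.7% of genes were called higher and 25.4% lower. The median there was 0.33 for the 10 mRNAs and -0.01 for all 15919 genes tested. Between the spheroid sets, all 10 were higher in Sph.WT than in L.O libraries, where 43.1% of genes were called higher and 42.4% lower, with a median of 1.28 for the 10 and 0.01 for all 16985 genes.

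**Figure D2:**
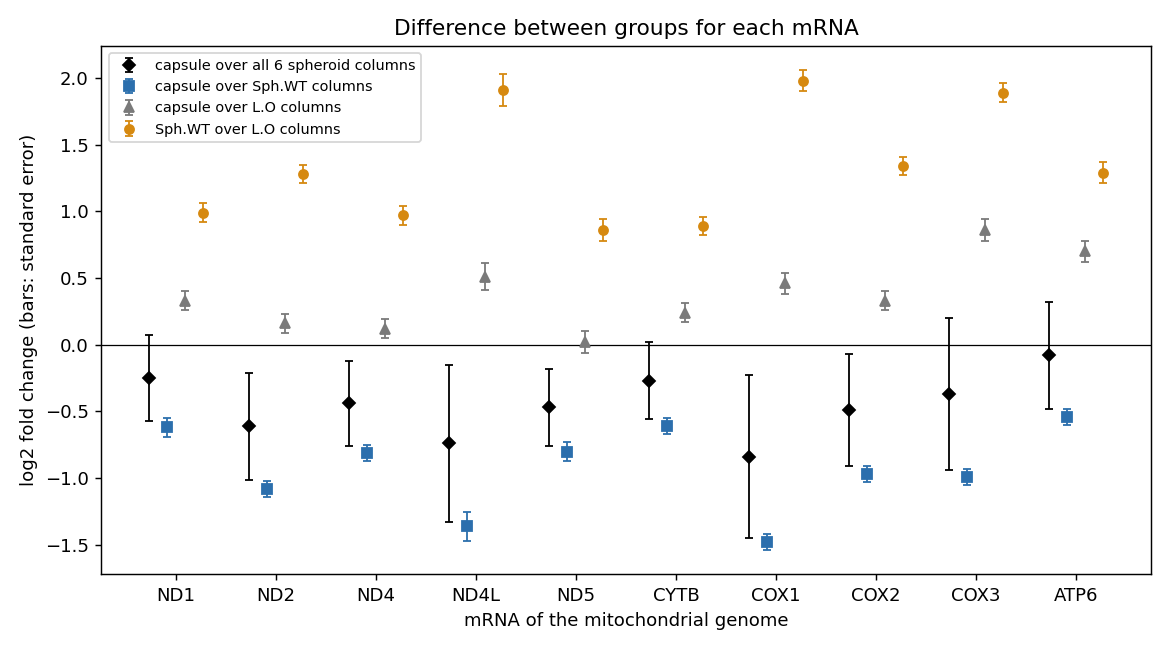
Fitted log2 fold change of each mRNA with its standard error (edgeR, TMM scaling) for capsules over all 6 spheroid libraries (black diamonds), capsules over Sph.WT libraries (blue squares), capsules over L.O libraries (grey triangles) and Sph.WT over L.O libraries (orange circles). Values against Sph.WT run from -1.48 to -0.54, those against L.O from 0.02 to 0.86, and those of Sph.WT over L.O from 0.86 to 1.98.

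Scaling matters for the smaller of these values. TMM factors were 1.0317 to 1.0507 in capsules, 0.8171 to 0.8499 in Sph.WT spheroids and 1.1438 to 1.1578 in L.O spheroids. Without TMM, the median of all genes moved by 0.28 for capsules over Sph.WT, by -0.15 for capsules over L.O and by -0.46 for Sph.WT over L.O on the log2 scale. The 10 mRNAs kept their calls against Sph.WT (50.8% of genes then higher, 35.4% lower) and between spheroid sets (31.1% higher, 55.0% lower). Against L.O, 6 in place of 7 were then higher (14.3% of genes higher, 36.8% lower). CYTB lost its call, at 0.10 with an adjusted p of 0.217 by edgeR.

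COX1 encodes the core subunit of cytochrome c oxidase, which holds its haem a and copper reaction centre, and of the 10 it had the largest fold changes in both comparisons with Sph.WT spheroids, but not in capsules over L.O spheroids. It had 8177, 8133 and 8013 CPM in capsules. It had 18779, 18617 and 18600 CPM in Sph.WT spheroids, and 7224, 6401 and 5899 CPM in L.O spheroids. The 3 sets did not overlap, and the capsule and Sph.WT libraries each lay within a narrow band. Capsules were lower than Sph.WT spheroids by a log2 fold change of -1.48 ± 0.06 (SE; adjusted p = 1.37e-14, edgeR) and higher than L.O spheroids by 0.46 ± 0.08 (adjusted p = 9.35e-05). Sph.WT over L.O was 1.98 ± 0.08, a fold of 3.95.

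COX2 carries the copper site that takes electrons from cytochrome c. Its levels were 3171, 2953 and 3065 CPM in capsules, against 5083, 4935 and 4876 CPM in Sph.WT spheroids and 2818, 2664 and 2626 CPM in L.O spheroids. It was lower in capsules than in Sph.WT spheroids (log2 fold change -0.97 ± 0.06, adjusted p = 1.75e-11, edgeR) and higher than in L.O spheroids (0.33 ± 0.07, adjusted p = 7.59e-04). The sets did not overlap. COX3, the third core subunit, had 2869, 2559 and 2741 CPM in capsules, against 4370, 4439 and 4598 CPM in Sph.WT spheroids and 1779, 1595 and 1602 CPM in L.O spheroids. Of the 10 mRNAs it had the largest fold over L.O spheroids, 1.82 (log2 fold change 0.86 ± 0.08, adjusted p = 4.45e-08, edgeR), while capsules were 0.503 of the Sph.WT level (-0.99 ± 0.06). All 3 complex IV mRNAs therefore lay between the spheroid sets in capsules.

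ATP6 encodes the membrane subunit of ATP synthase through which protons pass to turn the rotor. It had 4176, 3850 and 4403 CPM in capsules, against 5035, 4894 and 5037 CPM in Sph.WT spheroids and 3028, 2919 and 2503 CPM in L.O spheroids. The sets did not overlap, and the capsule values were nearer to Sph.WT than those of the other mRNAs. The log2 fold change was -0.54 ± 0.06 against Sph.WT (adjusted p = 1.47e-07, edgeR), the smallest of the 10 in size, and 0.70 ± 0.08 against L.O (adjusted p = 1.15e-06). ATP8, whose reading frame overlaps that of ATP6 on the same mRNA, went the other way against Sph.WT spheroids and the same way against L.O spheroids. ATP8 had 266, 246 and 328 CPM in capsules, against 127, 128 and 123 CPM in Sph.WT spheroids and 170, 168 and 165 CPM in L.O spheroids. It was higher in capsules against all 6 spheroid libraries (log2 fold change 0.86 ± 0.11, adjusted p = 0.0140, edgeR) and by 0.88 against either set. Against all 6, this and every other call was lost when any 1 capsule library was left out, with 0 genes called.

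CYTB encodes cytochrome b, the mitochondrially encoded subunit of complex III. It had 2526, 2456 and 2554 CPM in capsules, against 3118, 3258 and 3100 CPM in Sph.WT spheroids and 2418, 2300 and 2324 CPM in L.O spheroids. The 3 sets did not overlap, and the gap between capsules and L.O spheroids was narrow. The log2 fold change was -0.61 ± 0.06 against Sph.WT (adjusted p = 2.20e-08, edgeR) and 0.24 ± 0.07 against L.O (adjusted p = 0.00591), which is the value lost without TMM.

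The complex I mRNAs encode subunits of its membrane arm, which pumps protons. ND1 lies where the membrane arm meets the quinone site. It had 1833, 1701 and 1836 CPM in capsules, against 2359, 2325 and 2145 CPM in Sph.WT spheroids and 1628, 1504 and 1607 CPM in L.O spheroids. These ranges were separate, with a log2 fold change of -0.62 ± 0.07 against Sph.WT (adjusted p = 4.06e-08, edgeR) and 0.33 ± 0.07 against L.O (adjusted p = 7.49e-04).

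ND2, ND4 and ND5 are the antiporter-like subunits of the arm, and each was lower than in Sph.WT spheroids without a called difference from L.O spheroids. ND2 had 1721, 1631 and 1760 CPM in capsules, against 2992, 3056 and 2859 CPM in Sph.WT spheroids and 1694, 1570 and 1783 CPM in L.O spheroids. ND4 had 4044, 3869 and 4156 CPM in capsules, against 5958, 5738 and 5794 CPM in Sph.WT spheroids and 4394, 4101 and 3808 CPM in L.O spheroids. ND5 had 2522, 2321 and 2623 CPM in capsules, against 3337, 3852 and 3555 CPM in Sph.WT spheroids and 2994, 2768 and 2408 CPM in L.O spheroids. For all 3 the capsule and L.O ranges overlapped. Against Sph.WT the log2 fold changes were -1.08 ± 0.06 for ND2, -0.81 ± 0.06 for ND4 and -0.80 ± 0.07 for ND5 (adjusted p = 5.98e-12, 1.95e-10 and 2.87e-09, edgeR). Against L.O they were 0.16 ± 0.07, 0.12 ± 0.07 and 0.02 ± 0.08 (adjusted p = 0.0639, 0.194 and 0.891). These p-values do not show that the levels were equal. Without TMM, ND4 and ND5 had the opposite sign, at -0.03 and -0.13, and without the third L.O library ND2 was called higher, at 0.21 with an adjusted p of 0.0145 by edgeR.

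ND4L, a small subunit between ND1 and the antiporters, was the most variable within sets. It had 536, 456 and 583 CPM in capsules, against 906, 1287 and 1150 CPM in Sph.WT spheroids and 459, 422 and 344 CPM in L.O spheroids. Capsules were separate from Sph.WT spheroids and overlapped L.O spheroids. The log2 fold change was -1.36 ± 0.11 against Sph.WT (adjusted p = 4.02e-10, edgeR) and 0.51 ± 0.10 against L.O (adjusted p = 2.39e-04).

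To compare levels between genes, CPM was divided by the length of each gene in kilobases. In capsules ATP6 was highest at 6083 ± 408 CPM per kb, followed by COX1 at 5258 ± 55.1, COX2 at 4478 ± 159, COX3 at 3473 ± 199, ND4 at 2919 ± 105 and CYTB at 2201 ± 44.1 CPM per kb (SD, n = 3). ND1, ND4L, ND2 and ND5 followed at 1872 ± 80.7, 1768 ± 215, 1635 ± 63.5 and 1373 ± 84.7 CPM per kb. Of neighbours in this order, ND1 with ND4L and ND4L with ND2 overlapped. In Sph.WT spheroids COX1 was first at 12105 ± 64.3 CPM per kb, and ATP6 (7326 ± 120) and COX2 (7258 ± 155) overlapped behind it. COX3 followed at 5700 ± 149, and ND5 was last at 1976 ± 143. In L.O spheroids COX1 (4221 ± 434), ATP6 (4136 ± 407) and COX2 (3951 ± 148) overlapped, ND4 (2976 ± 213) stood above COX3 (2116 ± 133), and ND4L was last at 1375 ± 197 CPM per kb. The place of COX1 and COX3 in the order thus differed among the sets.

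**Figure D3:**
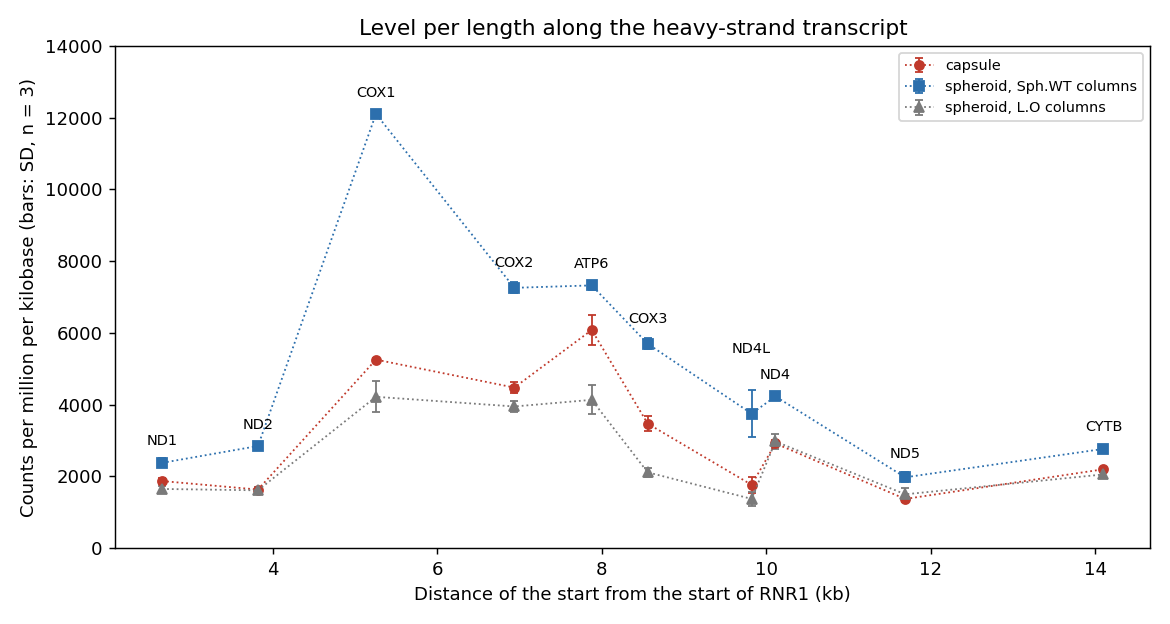
Level of each mRNA in CPM per kilobase (mean and SD of 3 libraries) against the distance of its start from the start of the rRNA gene RNR1 along the heavy-strand transcript, for capsules (red circles), Sph.WT spheroids (blue squares) and L.O spheroids (grey triangles); dotted lines only join points of one set. COX1, COX2 and ATP6, in the middle of the transcript, are the 3 highest in every set, and in Sph.WT spheroids COX1 stands out at 12105 CPM per kilobase.

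Level per length did not fall evenly with distance along the shared RNA. Over the 10 genes, Spearman's rho between distance and level was -0.248 to -0.115 in capsule libraries, -0.285 to -0.261 in Sph.WT libraries and -0.212 to -0.115 in L.O libraries. These describe 10 genes within one library each, which are not independent. In the middle stretch, COX1, COX2, ATP6 and COX3 were each higher per length than ND1 and ND2 before them in every set. ATP8, in the same stretch but not among the 10, was by mean lower than both. COX1 had 2.81 ± 0.135 times the level per kb of ND1 in capsules, 5.09 ± 0.247 times in Sph.WT spheroids and 2.56 ± 0.248 times in L.O spheroids.

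Levels per length were also compared between frames that share one mRNA. ND4L was at 0.604 ± 0.0526 of the level per kb of ND4 in capsules, 0.889 ± 0.170 in Sph.WT spheroids, where the libraries ran from 0.705 to 1.04, and 0.461 ± 0.0357 in L.O spheroids. ATP8 was at 0.222 ± 0.0205 of ATP6 in capsules, 0.0830 ± 0.00289 in Sph.WT spheroids and 0.197 ± 0.0169 in L.O spheroids (SD, n = 3 each). ND4L and ATP8 are short genes that share 7 and 46 bases with their partner, as shown in the sequences above, and the part of read assignment in these ratios was not tested.

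The make-up of the mitochondrial mRNA counts does not depend on how libraries are scaled to nuclear genes. COX1 took 25.9%, 27.2% and 25.3% of the summed counts of the 10 in capsules, against 36.2%, 35.5% and 36.0% in Sph.WT spheroids and 25.4%, 24.4% and 23.7% in L.O spheroids. Capsules and L.O spheroids overlapped by a narrow margin, and Sph.WT spheroids stood well above both. ATP6 took 13.3% ± 0.512 in capsules, 9.59% ± 0.219 in Sph.WT spheroids and 10.6% ± 0.536 in L.O spheroids, so that capsules were highest. COX3 took 8.76% ± 0.288, 8.59% ± 0.261 and 6.26% ± 0.177 in the same order of sets, with capsules and Sph.WT spheroids overlapping. ND4 took 12.9% ± 0.145 in capsules, 11.2% ± 0.261 in Sph.WT spheroids and 15.5% ± 0.168 in L.O spheroids, with no overlap. COX2 took 9.86% ± 0.192, 9.54% ± 0.209 and 10.2% ± 0.321, and its capsule values overlapped those of both spheroid sets.

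**Figure D4:**
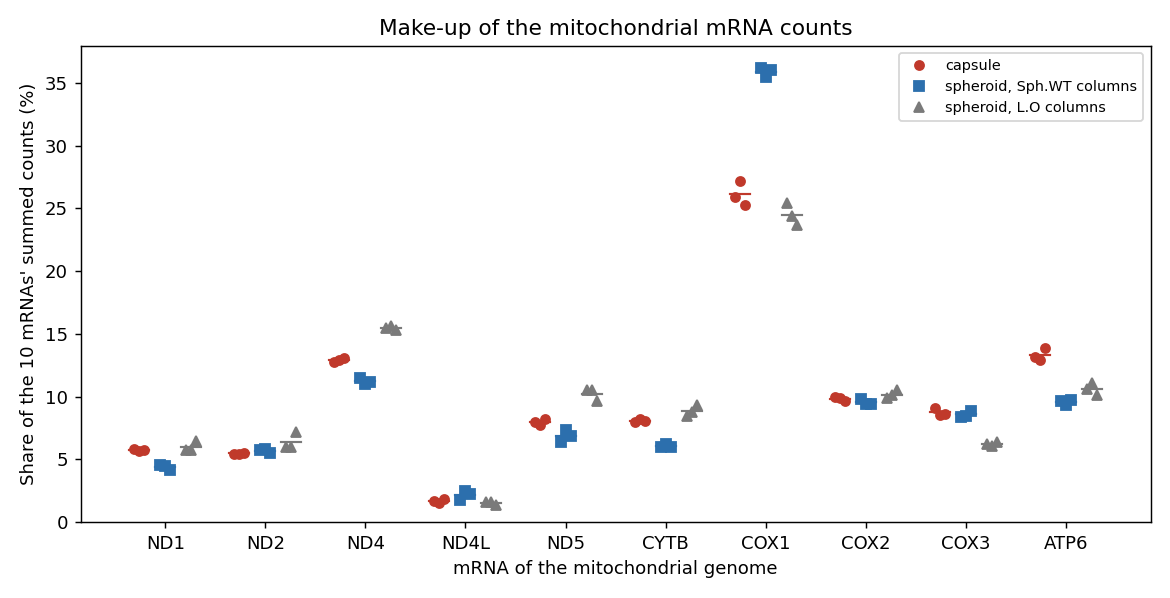
Share of each mRNA in the summed counts of the 10 (percent) in every capsule (red circles), Sph.WT spheroid (blue squares) and L.O spheroid (grey triangles) library, with short lines at the mean of 3. COX1 takes 35.5 to 36.2% in Sph.WT spheroids and at most 27.2% elsewhere, ATP6 is highest in capsules, and COX3 is lowest in L.O spheroids.

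With the summed counts of the 10 as library size in the edgeR fit over all genes, the shares could be tested. The shares are parts of one sum, so a smaller share of one mRNA raises those of others. Their calls are therefore not independent of each other. Relative to that sum, 5 mRNAs were higher in capsules than in Sph.WT spheroids (ND1 0.40, ND4 0.21, ND5 0.22, ATP6 0.47 and CYTB 0.41 on the log2 scale) and COX1 (-0.46 ± 0.06, adjusted p = 1.01e-06) and ND4L (-0.35 ± 0.10, adjusted p = 0.00317) were lower. On this scale 69.5% of all genes were called higher and 21.1% lower. Relative to L.O spheroids, COX3 (0.49 ± 0.07, adjusted p = 1.29e-04) and ATP6 (0.33 ± 0.07, adjusted p = 0.00206) were higher in capsules and ND2, ND4 and ND5 lower, at -0.22, -0.26 and -0.36, where 3.74% of all genes were called higher and 55.9% lower. Between the spheroid sets, COX1, ND4L and COX3 took larger shares in Sph.WT libraries (0.55, 0.48 and 0.46), and ND1, ND4, ND5, CYTB and ATP6 smaller ones, at -0.45, -0.46, -0.57, -0.55 and -0.15, where 14.7% of all genes were called higher and 77.5% lower. ATP6 was the only one of the 10 whose share in capsules was called higher against both sets.

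The nuclear-encoded subunits of the same complexes were set beside the mitochondrial ones. For complex I the mitochondrial mRNAs summed to 10530 ± 501 CPM in capsules, 15771 ± 423 CPM in Sph.WT spheroids and 10495 ± 620 CPM in L.O spheroids. The 37 nuclear subunits summed to 4378 ± 245, 1937 ± 147 and 3951 ± 277 CPM in the same sets (SD, n = 3 each). The Sph.WT libraries, highest in the mitochondrial mRNAs, were lowest in the nuclear ones. The ratio of both sums was 2.41 ± 0.245 in capsules, 8.18 ± 0.847 in Sph.WT spheroids and 2.67 ± 0.301 in L.O spheroids. It was 1.30, 3.75 and 1.40 for complex III, 6.28, 27.8 and 5.74 for complex IV and 0.915, 2.19 and 0.755 for complex V in the same order. The ratios are of CPM not divided by length, so only their change between libraries can be read.

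**Figure D5:**
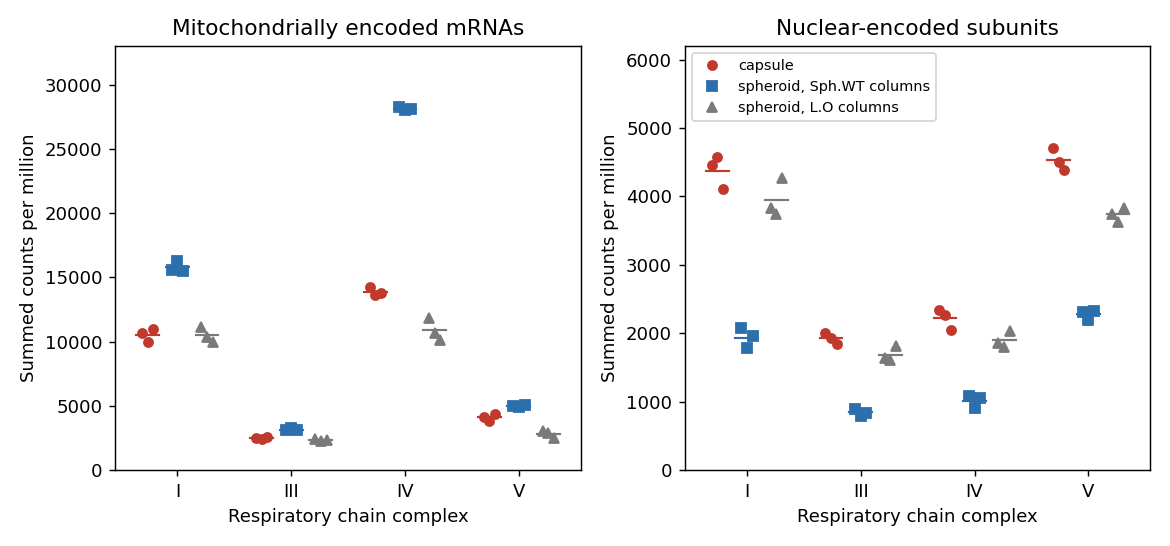
Summed CPM of the mitochondrially encoded mRNAs described (left) and of the nuclear-encoded subunits (right) of complexes I, III, IV and V in each capsule (red circles), Sph.WT spheroid (blue squares) and L.O spheroid (grey triangles) library, with short lines at the mean of 3; the vertical scales differ. For every complex the Sph.WT libraries are highest on the left and lowest on the right.

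Against Sph.WT spheroids, 43.2% of all genes tested were called higher in capsules and 42.9% lower. Of the nuclear subunits, 30 of 37 in complex I were higher and 5 lower, and 8 of 9 in complex III were higher and 1 lower. In complex IV 10 of 13 tested were higher and none lower, and in complex V 16 of 18 were higher and 1 lower. The largest rises were in NDUFA3 of complex I (2.68 ± 0.19), UQCRH of complex III (2.04 ± 0.07), COX6A1 of complex IV (1.61 ± 0.12) and ATP5ME of complex V (2.37 ± 0.09 on the log2 scale). The falls included NDUFB5 (-1.24 ± 0.08) and ATP5F1A, the alpha subunit of the ATP synthase head (-0.40 ± 0.06). These lists went the other way from the mitochondrial mRNAs in that comparison. The medians were 0.79, 0.94, 0.56 and 0.86 for the nuclear subunits of complexes I, III, IV and V, against 0.01 for all genes.

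Against L.O spheroids, where 7 of the 10 mitochondrial mRNAs were higher in capsules, most nuclear subunits of complexes I, III, IV and V were higher as well. Of all genes tested against L.O, 24.7% were called higher and 25.4% lower. The nuclear subunits called higher were 26 of 37 for complex I, 7 of 9 for complex III, 7 of 13 tested for complex IV and 17 of 18 for complex V. None was called lower except COX6B2 of complex IV. Examples were NDUFB1 (0.71 ± 0.09), UQCRH (0.70 ± 0.07), COX7B (0.93 ± 0.08) and ATP5ME (0.87 ± 0.08 on the log2 scale). The medians were 0.35, 0.40, 0.42 and 0.52, against -0.01 for all genes. Of complex II, which has no mitochondrially encoded subunit, 3 of 4 genes were called higher against L.O, while 2 were higher and 2 lower against Sph.WT. Against all 6 spheroid libraries together, 4 of 37, 2 of 9, 4 of 14 and 4 of 18 nuclear subunits of complexes I, III, IV and V were called higher and none lower (all genes: 2.30% higher, 1.47% lower), while none of the 10 mitochondrial mRNAs was called, and these calls too were lost without any 1 capsule library.

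Genes that make and mature mitochondrial RNA were called in both directions against Sph.WT spheroids. POLRMT, the mitochondrial RNA polymerase, averaged 175 ± 17.5 CPM in capsules, 42.6 ± 2.25 CPM in Sph.WT spheroids and 194 ± 17.4 CPM in L.O spheroids. It was lowest in the set where the mRNAs it transcribes were highest. TFAM, which packages mitochondrial DNA and starts its transcription, averaged 68.1 ± 4.27, 86.9 ± 3.33 and 44.6 ± 3.70 CPM in the same sets (SD, n = 3 each). TFAM had the order of the mitochondrial mRNAs, with a log2 fold change in capsules of -0.63 ± 0.07 against Sph.WT and 0.76 ± 0.08 against L.O (adjusted p = 2.03e-07 and 6.78e-07, edgeR). Of the 9 transcription genes, 3 were higher and 1 lower against Sph.WT (all genes: 43.2% higher, 42.9% lower), with a median of -0.04 against 0.01 for all genes. Against L.O, 6 were higher and none lower (all genes: 24.7% and 25.4%), with a median of 0.31 against -0.01.

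Among 20 genes of mitochondrial RNA processing and stability, 10 were higher and 8 lower in capsules against Sph.WT spheroids, shares of 50.0% and 40.0% that were near the 43.2% and 42.9% of all genes. SLIRP, which stabilises mitochondrial mRNAs together with LRPPRC, rose by 1.92 ± 0.11 on the log2 scale, and REXO2, a nuclease that degrades short RNAs, fell by 1.33 ± 0.07. Against L.O spheroids 16 were higher and 1 lower, 80.0% and 5.00% beside 24.7% and 25.4% of all genes, with a median of 0.34. TRMT10C, a subunit of the enzyme that cuts the 5′ ends of mitochondrial tRNAs, rose there by 0.74 ± 0.08, and FASTK fell by 0.27 ± 0.08. LRPPRC itself averaged 231 CPM in capsules, 202 CPM in Sph.WT spheroids and 192 CPM in L.O spheroids, with log2 fold changes in capsules of -0.08 (adjusted p = 0.340, edgeR) against Sph.WT, where TMM scaling turned the sign of the difference in CPM, and 0.41 (adjusted p = 5.20e-04) against L.O.

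The genes of mitochondrial DNA replication were higher in 8 of 11 cases and lower in 3 against Sph.WT spheroids, and higher in 4 and lower in 1 against L.O spheroids. The shares were 72.7% higher and 27.3% lower against Sph.WT (all genes 43.2% and 42.9%) and 36.4% and 9.09% against L.O (all genes 24.7% and 25.4%). TWNK, the replicative helicase, was higher by 1.77 ± 0.08 and 0.48 ± 0.07, and TK2, which makes nucleotides for mitochondrial DNA, lower, at -2.38 ± 0.09 and -0.53 ± 0.10 on the log2 scale. Of the coactivators that drive mitochondrial genes, PPARGC1A averaged 0.370 ± 0.0754 CPM in capsules, 34.6 ± 2.61 CPM in Sph.WT spheroids and 0.339 ± 0.0723 CPM in L.O spheroids. PPARGC1B was lowest in the Sph.WT set, at 48.0 ± 3.91, 7.72 ± 0.674 and 35.8 ± 3.83 CPM. Of the 7 regulators, 3 were higher and 2 lower against Sph.WT spheroids, and of 6 tested against L.O spheroids 4 were higher and none lower. The first is 42.9% higher, near the 43.2% of all genes, and the second 66.7% beside 24.7%.

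Assembly genes of complexes IV and I were counted in the same way. Against Sph.WT spheroids 13 of 18 cytochrome oxidase synthesis factors were higher in capsules and 3 lower, and 9 of 15 complex I assembly factors were higher and 2 lower, with medians of 0.52 and 0.47. Of all genes, 43.2% were higher and 42.9% lower, with a median of 0.01. Against L.O spheroids the counts were 10 higher and 1 lower, and 7 higher and 1 lower, with medians of 0.25 and 0.21. Of all genes, 24.7% were higher there and 25.4% lower, with a median of -0.01. COX11, which delivers copper to COX1, was higher by 0.58 ± 0.07 against L.O spheroids on the log2 scale, and NDUFAF4 by 0.83 ± 0.10.

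Within the capsule and L.O sets, most of the 10 mRNAs deviated the same way in a library. In capsules 9 of the 10 were lowest in the second library, and in L.O spheroids 9 of the 10 were highest in the first. How many of all genes were lowest or highest in those libraries was not counted, so this is not shown to be particular to these mRNAs. The mean of their centred log2 levels was 0.028, -0.076 and 0.048 in the capsule libraries, -0.028, 0.038 and -0.010 in the Sph.WT libraries and 0.095, -0.014 and -0.081 in the L.O libraries. The L.O libraries thus spread over a range of the size of the smaller capsule over L.O differences. Of 10883 nuclear genes with a mean of at least 10 CPM, those whose centred level was most like that of the 10 over the 9 libraries were ATP5F1A (Pearson's r = 0.992), the splicing factor PLRG1 (0.985), the microtubule protein MAP2 (0.984), the calpain inhibitor CAST (0.983) and RSL1D1 (0.982). These values are a description: the best of many candidates over few libraries, with depth and RNA preparation shared within a library.

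Some of the remaining RNAs of the mitochondrial genome had the order of the 10 mRNAs' sum, and others did not. RNR2, the large rRNA, averaged 5904 ± 555 CPM in capsules, 14443 ± 1097 CPM in Sph.WT spheroids and 4077 ± 305 CPM in L.O spheroids, the same order as the summed share of the 10 mRNAs. ND3, a small complex I subunit, had 493 to 578, 599 to 655 and 352 to 390 CPM, and the tRNA rows summed to 0.00817% ± 0.00132, 0.0221% ± 0.00174 and 0.00753% ± 0.00103 of all counts, also in that order, though the tRNA ranges of capsules and L.O spheroids overlapped. RNR1, the small rRNA, averaged 2117 ± 198, 1384 ± 214 and 1082 ± 190 CPM, so that capsules were highest. ND6, the light-strand mRNA, averaged 1010 ± 59.6, 1023 ± 97.1 and 1242 ± 73.6 CPM, so that by CPM it was highest in L.O spheroids. With TMM scaling the sign for Sph.WT over L.O turned, at 0.18 (adjusted p = 0.0302, edgeR). Its level per kb relative to ND5, which ends next to it on the other strand, was 1.40 ± 0.0275 in capsules, 0.993 ± 0.164 in Sph.WT spheroids and 1.58 ± 0.0871 in L.O spheroids (SD, n = 3 each). If the counting ignored strand, heavy-strand RNA across ND6 would add to its counts. The strand setting is not given in the sources used here.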

How the data were processed

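Reads per gene were deposited by the authors as whole-number counts with no normalization, for 17911 Entrez genes in 9 columns. The submitters' processing notes name hg38, featureCounts and limma. Not given in the sources used here are versions, gene models and strandedness. The names of the capsule and L.O columns contain subread, the name of an aligner. Those of the Sph.WT columns name no aligner, and the processing notes name none. Capsule columns matched 1 sample each by name, and the 6 others matched the spheroid group only, in 2 sets of names. No column was left out.

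Counts were scaled to CPM by library total. Differences were tested with edgeR 4.0.16 (R 4.3.3): TMM factors, the default filter on low counts by group, quasi-likelihood F test, Benjamini-Hochberg adjustment over all genes tested, threshold 0.05. The standard error is the log2 fold change divided by the square root of F. The comparison of capsules with all 6 spheroid columns was the first one made, those with each set alone have their own fits, and Sph.WT over L.O came from a fit with 3 groups. The fits were tested on simulated data. For capsules over all 6 spheroid columns, the simulated spheroid libraries shared a common mean per gene, so the difference between the real spheroid sets was not covered. The fit of capsules over Sph.WT alone was not simulated. DESeq2 1.42.0, limma 3.58.1 (voom), other scalings, no filter, each library left out and a replicate block were the alternatives. No pair of columns in a set agreed within counting noise (mean chi-square per gene at least 3.31). At totals of 13212665 to 33263076 counts, the spread between libraries thus exceeded counting error.

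Positions and lengths came from RefSeq's table of GRCh38, matched by Entrez ID, and sequences from GENCODE release 29, whose transcripts had the same lengths. Genes named beyond the 10 were the other mitochondrial RNAs, the genes that check the labels, the largest called rises and falls of each list, the genes most like the 10, and, chosen after their values were seen, LRPPRC. The members and lists were chosen with earlier results of these data known. Tables and figures were made in Python 3.11.15 with pandas 2.3.3, scipy 1.17.1, numpy 2.4.6 and matplotlib 3.10.9.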

Additional observations from a re-analysis of the deposited data

Results flagged for a closer look

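ND2 took 7.16% of the summed counts of the 10 mRNAs in the third L.O library, far above the 5.53 to 5.98% of the other 5 spheroid libraries. In a single uniform group, chance marks about 1 in 20 groups in this way, but the 6 spheroid libraries form 2 sets, so that rate need not hold. The rule was applied to every level, share and ratio of the mitochondrial RNAs and subunit sums, and it marked this value alone.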

How the results depend on the processing

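The fall of all 10 mRNAs against Sph.WT libraries and their rise in Sph.WT over L.O libraries held under RLE factors, library totals and each library left out. Against all 6 spheroid columns, 639 genes were called, but 359 with library totals, 4025 with DESeq2, 7970 against L.O columns alone (7 mRNAs higher), 13909 against Sph.WT columns alone (10 lower) and 12643 against the mean of both sets in a fit with 3 groups (8 lower; chosen after the data had been seen). Leaving out 1 library gave 0 to 604 calls: 0 without any one capsule library, 154, 240 and 207 without Sph.WT library 1, 2 and 3, and 604, 287 and 409 without L.O library 1, 2 and 3. Column numbers did not pair the samples (r of same-numbered columns -0.097 to 0.016), and with a replicate block 0 genes were called.

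Against L.O alone the log2 values of the 10 turned positive: ND1 0.33, ND2 0.16, ND4 0.12, ND4L 0.51, ND5 0.02, COX1 0.46, COX2 0.33, COX3 0.86, ATP6 0.70 and CYTB 0.24. Against all spheroids ATP6 turned positive with library totals (0.09), upper-quartile scaling (0.09), limma-voom (0.06) and in the fit with 3 groups (0.06), and ran from -0.21 to 0.03 with 1 library left out. Against L.O, library totals turned ND4 (-0.03) and ND5 (-0.13), and ND5 ran from -0.07 to 0.09 with 1 library left out.

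Scaling to the sum of the 10 measures shares, so signs turn by construction. Against all spheroids ND1 (0.15), COX3 (0.24), ATP6 (0.40) and CYTB (0.11) turned. Against Sph.WT 5 were higher and 2 lower, with ND1 0.40, ND4 0.21, ND5 0.22, COX2 0.05, COX3 0.03, ATP6 0.47 and CYTB 0.41. Against L.O 2 were higher and 3 lower, with ND1 -0.05, ND2 -0.22, ND4 -0.26, ND5 -0.36, COX2 -0.05 and CYTB -0.13. For Sph.WT over L.O 3 were higher and 5 lower, with ND1 -0.45, ND2 -0.16, ND4 -0.46, ND5 -0.57, COX2 -0.10, ATP6 -0.15 and CYTB -0.55.

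The summed share was 3.24% in capsules and 5.59% in Sph.WT spheroids over nuclear counts, and 2.99%, 6.22% and 2.30% in capsules, Sph.WT and L.O spheroids over TMM-scaled totals. Over all 13 mitochondrial mRNAs, COX1 took 24.7%, 34.7% and 23.0% in the same sets. The cause of the changes other than those in shares was not tested.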
